A study of Homo sapiens with 6 samples.

Results

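USP39 binding sites were examined in 32 genes that encode chaperones of the cytosol and the mitochondria and their co-chaperones. USP39 belongs to the tri-snRNP, the assembly of U4, U5 and U6 that enters the spliceosome ahead of its activation. The genes were taken from a named list, and a site was counted for a gene when its central base lay in the gene's span, on the strand that carried most of the gene's sites, and outside SNORD and SNORA genes. By this rule the chaperone genes held 463 of the 34781 sites of the series, or 1.33% (95% Wilson interval 1.22% to 1.46%, which covers counting error only), and 27 of the 32 genes had a site. The list came from wild-type cells of the HEK293T line, derived from human embryonic kidney, that were irradiated with 254 nm UV light and whose USP39 was pulled down with an antibody against it by iCLIP2 (a method that maps contacts of a protein with RNA from their UV crosslinks). The 6 libraries came from the high and the low region cut from the membrane, 3 replicates of each, all of the same cells, genotype and antibody. A single merged list was analysed, filed under the low region, and which libraries went into it is not stated in the labels. It holds no value per library, so a site has no depth and no replicate error, the membrane regions could not be compared, and no test was made. The control that had no UV treatment was not used here, and RNA abundance was not measured, so a larger number of sites in a gene and a larger amount of its RNA cannot be told apart.

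Chaperones bind proteins that are not yet folded. The HSP70 proteins take up short stretches of unfolded chains with the help of J-proteins, which deliver clients and stimulate the ATPase, and HSP90 acts later on a narrower set of clients such as kinases and receptors. Chaperonins are closed barrels in which a whole protein folds; TRiC, built from the TCP1 and CCT subunits, is the barrel of the cytosol, HSPD1 with its lid HSPE1 is that of mitochondria, and prefoldin hands actin and tubulin to TRiC.

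Sequence could be read for 19 sites in 11 of the genes, because the site and 12 nt on each side lay in a promoter window of the RefSeq table (GRCh38.p14, 250 nt before to 50 nt after an annotated start). The 12 sites below are centred between 3 nt before and 33 nt after an annotated start of their own gene, and they are shown because they give the RNA letters at which USP39 sites were placed and the position of the first sites of HSP90, HSP70 and chaperonin transcripts. The letters are those of the transcribed strand, 5′ to 3′, with T for U, and the capitals mark the 5 nt of the site.
HSP90AA1, chr14:102087032-102087060, minus strand: gcgggggtggcgCGTCAgttgcttcagcg
HSP90AA1, chr14:102087024-102087052, minus strand: ggcgcgtcagttGCTTCagcgtcccggtg
HSP90AA1, chr14:102086997-102087025, minus strand: tgtggctgtgccGTTGGtcctgtgcggtc
HSP90AB1, chr6:44247085-44247113, plus strand: ggggcacgcagtAGCTCtctcgagtcact
HSPA8, chr11:123062091-123062119, minus strand: cagctcttgggtTTTTTgtggcttccttc
HSPD1, chr2:197499829-197499857, minus strand: tgcgccctgcacTCTGTccctcactcgcc
HSPD1, chr2:197499804-197499832, minus strand: cgccgccgacgaCCTGTctcgccgagcgc
HSPE1, chr2:197500376-197500404, plus strand: actgcgagtctcTTTGCggcgctacacta
HSPE1, chr2:197500388-197500416, plus strand: tttgcggcgctaCACTAgagcagagtacg
CCT7, chr2:73234302-73234330, plus strand: cgaggcattgtgGGTTGctgggcggcccg
PFDN1, chr5:140303074-140303102, minus strand: cactgcgcaggcGCTTAcagtgcaccaag
PFDN5, chr12:53295543-53295571, plus strand: tcttcgttaagtCGGCCttcccaacatgg

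The central base was T in 15 of the 19 chaperone sites with a known sequence (78.9%, Wilson interval 56.7% to 91.5%). It was T in 562 of 849 other sites of the list that lay in such windows (66.2%, Wilson interval 62.9% to 69.3%). In the 12 nt on each side, T made up 20.2% of the letters around the chaperone sites and 24.5% around the other sites. The base after the centre was also most often T, in 10 of the 19 chaperone sites and in 471 of the 849 others. The interval of the chaperone sites contains the share of the other sites in such windows, and the letters of sites elsewhere in the list were not read. This interval takes the 19 sites as independent, but they lie in 11 genes and some of their windows overlap, so it may be too narrow.

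The chaperone families differed widely in how many sites their genes held, as the plot of sites per gene shows. The 10 chaperonin genes carried 246 sites, 53.1% of all chaperone sites, and the 3 HSP90 genes carried 105 (22.7%). The 6 HSP70 genes held 76 sites (16.4%). The 5 J-protein genes held 15 sites and the 5 prefoldin genes 11. HSPB1, STIP1 and BAG3 held 10 sites, and STIP1 accounted for all of them. These are counts in 1 list, and the difference between families was not tested.

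**Figure D1:**
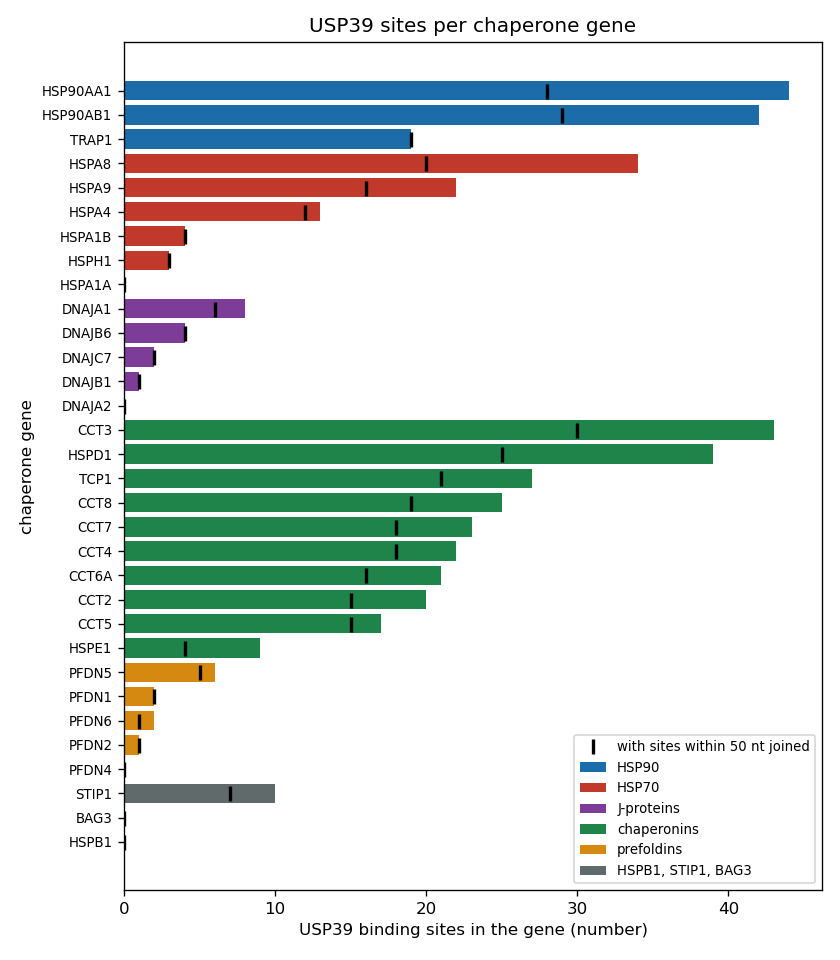
Number of USP39 binding sites (x axis) in each of the 32 chaperone genes (y axis), coloured by family; the black mark gives the number after sites within 50 nt were joined. HSP90AA1 (44), CCT3 (43) and HSP90AB1 (42) have the longest bars, and 5 genes have no site.

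Of the 32 chaperone genes 27 (84.4%) had at least 1 site, against 23.1% of 20043 protein-coding genes counted in the same way. At least 5 sites were found in 19 chaperone genes (59.4%), against 8.83% of protein-coding genes. At least 20 sites were found in 12 chaperone genes (37.5%), against 2.01% of protein-coding genes. Those 12 genes, which are HSP90AA1, HSP90AB1, HSPA8, HSPA9, HSPD1, TCP1, CCT2, CCT3, CCT4, CCT6A, CCT7 and CCT8, held 362 of the 463 sites. Among genes that had a site, the median number was 17 in the chaperone genes and 3 in all protein-coding genes. The protein-coding genes were taken without regard to expression, and the part of expression in these differences was not tested. The chaperone genes were chosen with earlier results of these data known, and the part of that choice was not tested either.

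Per kb of gene span the order of the families depended on the span taken for HSP90AA1. Over the spans of the gene table, the order was chaperonin, HSP90, HSP70, prefoldin and J-protein genes. The chaperonin genes had a median of 1.45 sites per kb, with all 10 genes between 1.03 and 2.93. The HSP90 genes had a median of 0.746 sites per kb and the HSP70 genes of 0.628, each with a wide spread between genes. With sites within 50 nt joined these medians were 0.475 and 0.480, so the order of HSP90 and HSP70 was not kept. The HSP90 median is the value of HSP90AA1 itself over a span whose first 52.7 kb hold no site, and with that gene measured from its second annotated start, further inside the span, the median was 5.46 sites per kb, above that of the chaperonin genes. The J-protein genes had a median of 0.0488 and the prefoldin genes of 0.0572 sites per kb. Among all protein-coding genes with a site the median was 0.126 sites per kb, and among the chaperone genes with a site it was 1.07. Gene spans include introns, so a long gene has a low density for the same number of sites, and the median span was 17.4 kb for the chaperone genes and 24.1 kb for all protein-coding genes.

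**Figure D2:**
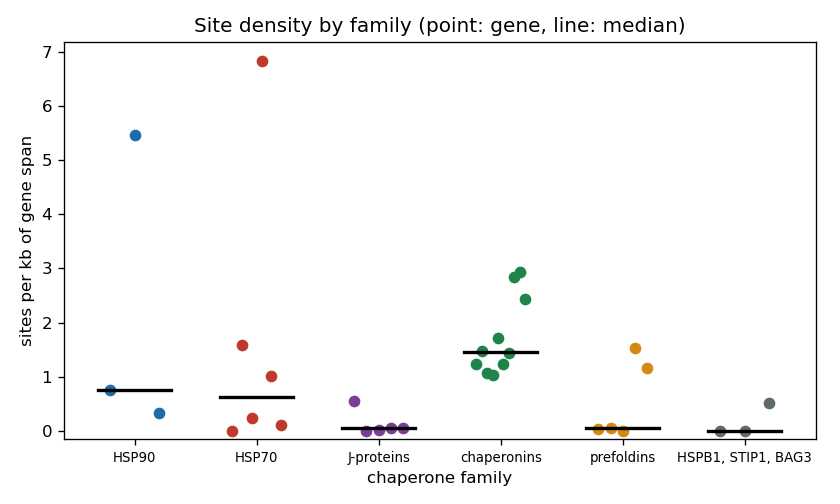
USP39 sites per kb of gene span (y axis) for each chaperone gene (point) by family (x axis), with the family median as a line. HSPA8 (6.84) and HSP90AB1 (5.46) lie above all other chaperone genes, and the 10 chaperonin genes lie between 1.03 and 2.93.

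The cytosolic HSP90 genes were near equal in number of sites. HSP90AA1, the stress-inducible cytosolic HSP90 (chromosome 14, 102080742 to 102139749, minus strand, 59008 nt), had 44 sites. HSP90AB1, the constitutive one (chromosome 6, 44246194 to 44253883, plus strand, 7690 nt), had 42. TRAP1, the HSP90 of mitochondria (chromosome 16, 3658037 to 3717524, minus strand, 59488 nt), had 19. Among protein-coding genes HSP90AA1 ranked 93rd and HSP90AB1 99th by number of sites, and TRAP1 ranked 403rd. After joining sites within 50 nt, HSP90AA1 had 28, HSP90AB1 29 and TRAP1 19. TRAP1 was thus the one HSP90 gene with no sites within 50 nt of each other, though its smallest spacing was 51 nt.

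All 44 sites of HSP90AA1 lay between 561 and 6304 nt from the 3′ end of its span of 59008 nt. The RefSeq table gives HSP90AA1 an outer start at the span's 5′ end and an inner start at 102087044, which lies 52.7 kb further in. The first 3 sites were centred 2 nt before this inner start, and 6 and 33 nt after it; their sequences are printed above. No site lay further upstream, in the 52.7 kb that only the transcript from the outer start covers. Measured from the inner start HSP90AA1 had 6.98 sites per kb, against 0.746 per kb of the whole span. Measured likewise, HSP90AB1 had 6.19 per kb from its second start and HSPA8 7.31 per kb from its annotated start. Over their whole spans HSP90AB1 had 5.46 and HSPA8 6.84 per kb. The sites 2 nt before these starts of HSP90AA1 and HSP90AB1 were counted. The site at 2 nt before the start lay 8 nt from the next, and their windows share letters.

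HSP90AB1 has annotated starts at 44246194, 44247101 and 44247943. Its first site was centred at 44247099, 2 nt before the second of these, and none lay in the 905 nt of the span before it. That site was 905 nt from the start of the span, a pair followed at 968 and 974 nt, then none for 1504 nt, and the other 39 sites ran to 62 nt from the 3′ end. The densest 1000 nt of HSP90AB1 held 13 sites and that of HSP90AA1 held 12. In TRAP1 the densest 1000 nt held 4, the median spacing was 1232.5 nt against 74 nt in HSP90AA1 and 88 nt in HSP90AB1, and no site lay in the last 7996 nt. Of the 19 sites in TRAP1, 6 also lay in the span of LOC124903630, a transcribed pseudogene.

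**Figure D3:**
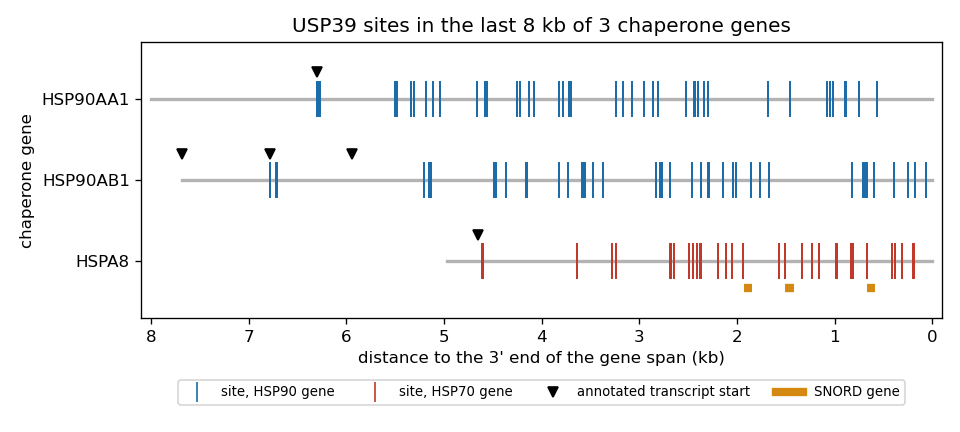
Sites (vertical strokes) in the last 8 kb of HSP90AA1, HSP90AB1 and HSPA8, by distance to the 3′ end of the gene span in kb (x axis); triangles mark annotated transcript starts and orange blocks SNORD genes, whose own sites are not drawn. The sites of HSP90AA1 begin at its inner start, and those of HSP90AB1 begin at the second of its 3 starts.

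In the HSP70 family 2 genes, HSPA8 and HSPA9, carried most of the sites. HSPA8, the constitutive HSP70 of the cytosol (chromosome 11, 123057489 to 123062462, minus strand, 4974 nt), had 34 sites, which is 6.84 per kb, rank 47 by density among protein-coding genes. HSPA9, the mitochondrial HSP70 (chromosome 5, 138553756 to 138575401, minus strand), had 22 sites, and HSPA4, a nucleotide exchange factor of the HSP110 group (chromosome 5, 133052013 to 133106449, plus strand), had 13. HSPH1, another HSP110 protein (chromosome 13, 31134973 to 31162388, minus strand), had 3. The near-identical heat-inducible genes on chromosome 6 differed, with 4 sites in HSPA1B (31827738 to 31830254, plus strand) and 0 in HSPA1A (31815543 to 31817942). How reads that match both copies were treated is not given in the sources used here, so the split between HSPA1A and HSPA1B is uncertain.

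The 4 sites of HSPA1B lay at the ends of the gene, at 43 and 167 nt from its start and at 227 and 88 nt from its end, with none in the 2122 nt between. How reads that match both HSPA1A and HSPA1B were treated is not given, so this gap is uncertain too. It is not shown to be free of USP39. In HSPA8 the densest 1000 nt held 13 of the 34 sites, and 64.7% of its sites had another within 50 nt. In HSPA9 3 sites lay 53 to 74 nt after the start, and the largest gap between neighbours was 4972 nt. In HSPA4 the largest gap was 15149 nt and 15.4% of sites had another within 50 nt. Of the 22 sites of HSPA9, 6 also lay in LOC105379193, a lncRNA gene annotated on the opposite strand.

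HSPA8 and HSPA9 also host C/D box snoRNA genes in their spans, and the sites in those genes were counted apart. In HSPA8, SNORD14E and SNORD14D held 3 sites each and SNORD14C held 2. In HSPA9, SNORD63 held 2 and SNORD63B held 1. TCP1 hosts SNORA20, with 2 sites, and SNORA29, with 0. SNORA105B in HSPD1 held 2, while SNORA22B and SNORA15 in CCT6A held 0. Of 10 such genes in 5 chaperone genes, 7 held 15 sites in all, each on the strand of the host's sites. The share of all SNORD and SNORA genes with a site was not counted. These numbers are therefore not shown to be particular to snoRNA genes in chaperone genes.

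A further 5 sites that were counted for the chaperone genes lay within 10 nt upstream of a snoRNA gene, and 0 within 10 nt downstream of one. They were centred 2 nt before SNORD14D, SNORD14C, SNORD63 and SNORA20 and 6 nt before SNORD14E. Such sites were not counted around the snoRNA genes of other hosts, so their placement is not shown to be particular to these. Without these 5 the chaperone genes together had 458 sites. Whether these belong to the snoRNA or to the host's unspliced RNA cannot be told apart from positions.

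The J-protein genes were sparse in sites. DNAJA1, a main J-protein of the cytosol (chromosome 9, 33025273 to 33039907, plus strand), had 8 sites, and DNAJB6, which holds back aggregation of polyglutamine proteins (chromosome 7, 157337004 to 157417439, plus strand), had 4. DNAJC7, which can bind HSP70 and HSP90 (chromosome 17, 41976435 to 42017439, minus strand), had 2. DNAJB1, the classic heat-inducible HSP40 (chromosome 19, 14514769 to 14560391, minus strand), had 1, and DNAJA2 (chromosome 16, 46955362 to 46973674) had 0. Of these 5 genes only DNAJA1 reached 5 sites.

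In 3 of the J-protein genes a site lay close to the 3′ end, at 159 nt in DNAJB1, 314 nt in DNAJC7 and 431 nt in DNAJB6. The last of the sites in DNAJA1 was 1101 nt from the end. The 1 site of DNAJC7 near its end also lay in the span of CNP, a gene annotated on the opposite strand. In the span of DNAJB1 1 more site lay on the plus strand, within TECR and MIR639; the strands tied there, and the annotated strand of DNAJB1 was used.

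TRiC is made of 8 different subunits in each ring, and all 8 genes carried many sites. CCT3 (chromosome 1, 156308968 to 156338292, minus strand) had the most with 43, and CCT5 (chromosome 5, 10249921 to 10266412, plus strand) the fewest with 17. TCP1, the alpha subunit (chromosome 6, 159778498 to 159789602, minus strand), had 27 and CCT8 (chromosome 21, 29056326 to 29073648, minus strand) had 25. CCT7 (chromosome 2, 73234308 to 73253005, plus strand) had 23, CCT4 (chromosome 2, 61868085 to 61888671, minus strand) 22, CCT6A (chromosome 7, 56051765 to 56063989) 21 and CCT2 (chromosome 12, 69585459 to 69601570, plus strand) 20. With no error per gene, neighbours in this order cannot be separated. Per kb the values ran from 1.03 in CCT5 to 2.43 in TCP1, with CCT3, the longest of them, at 1.47.

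The sites of the TRiC genes ran along most or all of the gene span. From the first to the last site they stretched over 87.9% of the span in CCT5 and over 99.6% in CCT7. The stretch was not measured in other protein-coding genes. In CCT7 the first site was centred 8 nt after the start and in CCT3 47 nt after it. In CCT8 the first and last sites lay 90 nt from the start and 81 nt from the end. TCP1 had 9 of its 27 sites in the first 10% of the span and CCT3 had 10 of 43, while CCT7 had 7 of 23 in the last 10%. Over the 8 genes 18.7% of sites lay in the first 10% (Wilson interval 13.9% to 24.7%) and 15.2% in the last 10% (Wilson interval 10.8% to 20.8%).

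Some of the TRiC sites lay where another gene overlaps. In CCT3 7 sites at the 5′ end also lay in TSACC, annotated on the plus strand. In CCT4 4 lay in COMMD1 and 1 in LOC124907773, both annotated on the plus strand, and in TCP1 2 lay in ACAT2. By the counting rule only sites on the strand of the chaperone gene were taken, so their strand is no separate result. Without them CCT3 had 36 sites, CCT4 17 and TCP1 25.

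The mitochondrial chaperonin genes lie head to head on chromosome 2. HSPD1 (197486584 to 197500274, minus strand) had 39 sites and HSPE1 (197500379 to 197503449, plus strand) had 9, at nearly the same density of 2.85 and 2.93 per kb. The first sites of HSPE1 were centred 11 and 23 nt after its start. In HSPD1 the first was 431 nt from the 5′ end of the span and 3 nt before its inner start at 197499840, and the next was 22 nt after that start. The spans are 104 nt apart, and every site in either followed the strand of its own gene. All 9 sites of HSPE1 also lay in the read-through gene HSPE1-MOB4, which shares its start and strand. After joining sites within 50 nt, HSPD1 had 25 sites and HSPE1 had 4.

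Of the prefoldin genes, 4 of 5 had a site but few of them. PFDN5 (chromosome 12, 53295542 to 53299450, plus strand) had 6, the first 15 nt after the start and the last 102 nt from the end. PFDN1 (chromosome 5, 140245035 to 140303101, minus strand) had 2, which stood at opposite ends of a 58.1 kb span, 13 nt from the start and 465 nt from the end. PFDN6 (chromosome 6, 33289197 to 33290934, plus strand) had 2 abutting sites, 5 nt apart, the last centred 56 nt from the end. PFDN2 (chromosome 1, 161100561 to 161118037) had 1, 98 nt from the end, and PFDN4 (chromosome 20, 54208087 to 54219961) had 0. Each of the 4 genes thus had a site in the last 500 nt of its span.

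Among the remaining genes, STIP1, the adaptor that links HSP70 with HSP90 (chromosome 11, 64185272 to 64204543, plus strand), had 10 sites, of which 4 lay in the last 500 nt and the last 49 nt from the end. HSPB1, a small heat shock protein (chromosome 7, 76302673 to 76304292), and BAG3, a co-chaperone that directs clients to autophagy (chromosome 10, 119651380 to 119677819), had 0. With a count of 0 and unknown depth, an absence of binding is not shown. The 5 genes without a site were HSPA1A, DNAJA2, PFDN4, HSPB1 and BAG3.

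Most chaperone genes with at least 5 sites had them along most of the span, as the plot of positions along each gene shows. Of the 19 chaperone genes with at least 5 sites, 18 had sites over at least 80% of the span from the first to the last, and the exception was HSP90AA1 with 9.73%. This stretch was not measured in other protein-coding genes, so it is not shown to be particular to the chaperone genes. The last 10% of the span held 115 of the 463 chaperone sites, or 24.8% (Wilson interval 21.1% to 29.0%). In the chaperone genes with 3 or more sites it held 109 of 455, or 24.0%, near the 24.0% in the other protein-coding genes with 3 or more sites. HSP90AA1 gave 41 of the 115, and without it the share was 17.7% (Wilson interval 14.3% to 21.6%). By family the share was 46.7% in HSP90 genes, 14.5% in HSP70 genes, 33.3% in J-protein genes, 16.3% in chaperonin genes and 45.5% in prefoldin genes. The HSP90 value came from HSP90AA1. Without that gene it was 8 of 61 sites, or 13.1% (Wilson interval 6.80% to 23.8%), and with HSP90AA1 measured from its inner start 10 of 104 sites, or 9.62%. The shares of J-protein and prefoldin genes rest on 15 and 11 sites, with Wilson intervals of 15.2% to 58.3% and 21.3% to 72.0%.

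**Figure D4:**
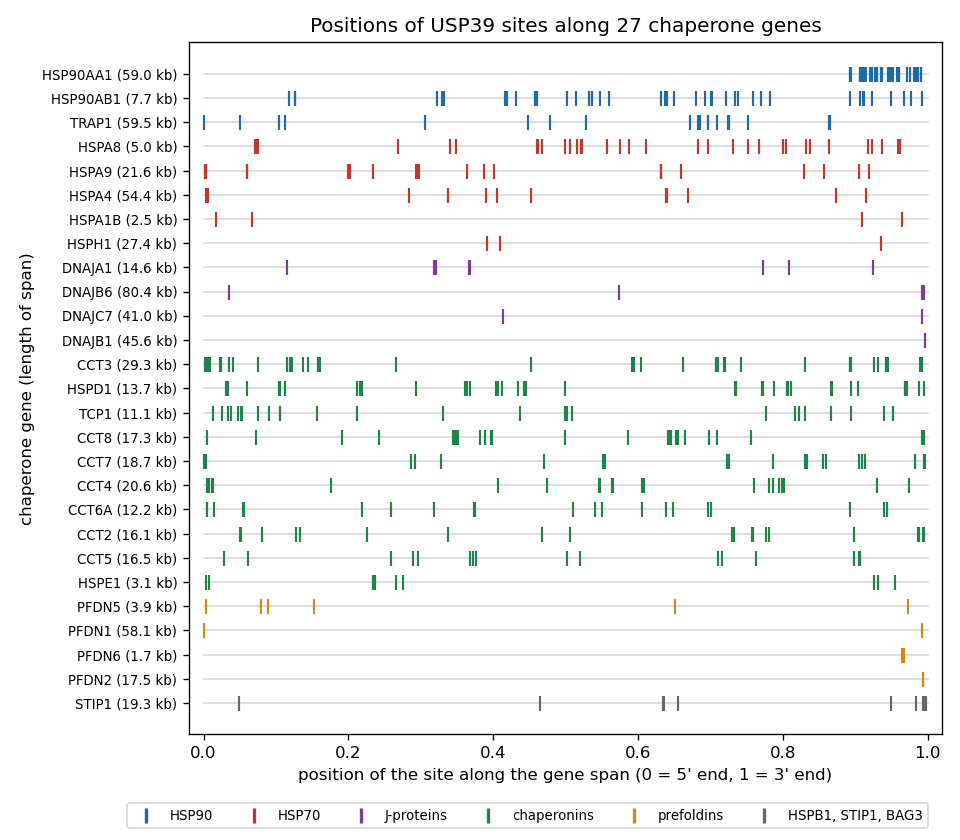
Each USP39 site (stroke) in the 27 chaperone genes with a site (y axis, with the span length), by its position from the 5′ end to the 3′ end of the gene span as a share of its length (x axis). The strokes of HSP90AA1 all lie at the right end, and those of the TRiC genes run along most or all of the line.

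The first 10% of the span held 62 chaperone sites, or 13.4% (Wilson interval 10.6% to 16.8%). In the chaperone genes with 3 or more sites the share was also 13.4%, against 10.9% in the other protein-coding genes with 3 or more sites. Sites close to the start of the span were frequent. Among the 27 chaperone genes with a site, 11 (40.7%) had one in the first 100 nt of the span, against 14.0% of protein-coding genes with a site. Genes with many sites have more chances to do so. Among genes with at least 5 sites the numbers were 9 of 19 chaperone genes (47.4%) against 25.9%. This cut did not make the site numbers equal. The median was 22 sites in these 19 chaperone genes and 10 in the protein-coding genes with at least 5 sites. The part of site number in the remaining difference was not tested. The 11 genes with a site in the first 100 nt were TRAP1, HSPA1B, HSPA9, CCT3, CCT4, CCT6A, CCT7, CCT8, HSPE1, PFDN1 and PFDN5. HSP90AA1, HSP90AB1 and HSPD1 are not among them, since their first sites lay within 3 nt of an inner start, nor is HSPA8, whose first site was 31 nt after its annotated start but 357 nt from the start of its span. A site in the last 500 nt was found in 17 of the 27 (63.0%), against 26.5% of protein-coding genes with a site. Among genes with at least 5 sites it was found in 10 of the 19 (52.6%) against 44.1%. The same difference in site number applies to this comparison.

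**Figure D5:**
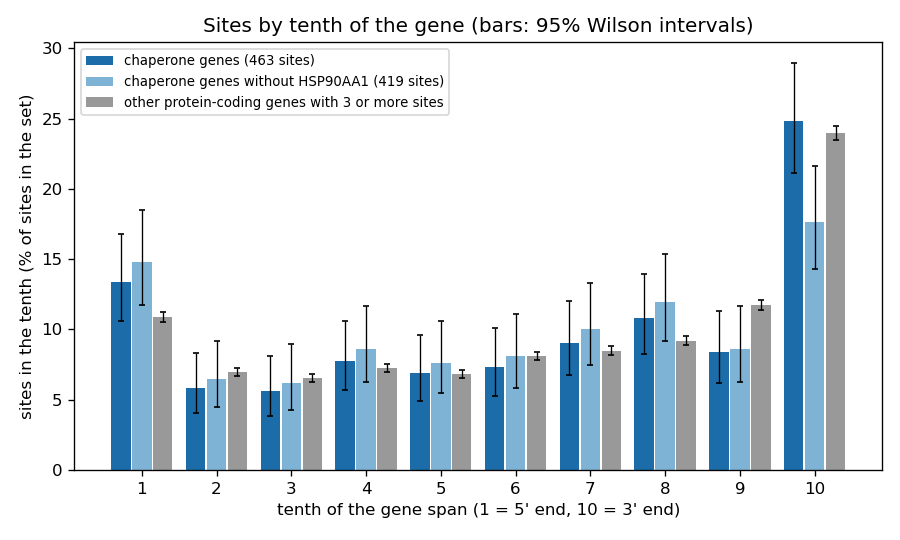
Share of sites (y axis, % of the sites of each set, with 95% Wilson intervals for counting error) in each of 10 equal parts of the gene span from the 5′ end to the 3′ end (x axis), for the chaperone genes, the chaperone genes without HSP90AA1 and the other protein-coding genes with 3 or more sites. In the last part the chaperone genes stand at 24.8%, at 17.7% without HSP90AA1, and the other genes at 24.0%. The chaperone sets include genes with fewer than 3 sites.

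Sites in chaperone genes often had a close neighbour. Within 50 nt of another site of the same gene lay 214 of the 463 sites, or 46.2% (Wilson interval 41.7% to 50.8%). In the 19 chaperone genes with at least 5 sites the share was 47.7%, against 37.3% in the other protein-coding genes with at least 5 sites. Within 20 nt the shares were 24.8% and 23.0%, and within 100 nt 68.9% and 50.7%. HSPE1 had the highest share of these 19 genes, 88.9%, followed by HSPA8 with 64.7%, HSPD1 with 64.1% and HSP90AA1 with 63.6%, and TRAP1 had 0. A gene with more sites per kb has closer neighbours at any placement, so the values describe density as well as clustering.

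The strand of the sites matched the annotation in each chaperone gene where it could be compared, 25 of 25 genes with a site and a promoter entry, although in DNAJB1 the annotation itself decided. The match was not counted over all protein-coding genes, so it is not shown to be particular to the chaperone genes. CCT6A and PFDN2 have no entry, and their strands were taken from the sites.

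Other chaperone and co-chaperone genes outside the 32 had a median of 0 sites, against 9.5 in the 32; the difference was not tested. Of 73 such genes 34 (46.6%) had a site, against 23.1% of all protein-coding genes. At least 5 sites were found in 13 of them (17.8%), against 8.83% of all protein-coding genes. The median over all protein-coding genes was also 0 sites. The HSP90 and HSP70 co-chaperones held most, with a site in 16 of 26 genes and 98 sites, and the other J-proteins had a site in 10 of 21. The other HSP70 and HSP110 genes had a site in 2 of 8, the other chaperonin and prefoldin-like genes in 4 of 8, the heat shock factor genes in 2 of 3 and the other small heat shock genes in 0 of 7. PTGES3, the p23 co-chaperone of HSP90, led with 22 sites. BAG6, which shields newly made membrane proteins, followed with 16, FKBP4, an immunophilin that binds HSP90, with 12, ST13, which binds HSP70, with 11, and DNAJC5, the cysteine string protein, with 10.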

How the data were processed

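USP39 iCLIP2 libraries of HEK293T cells (3 from the low and 3 from the high membrane region) were deposited as 1 merged BED list of 34781 binding sites of 5 nt. The score that the authors deposited is 0 for every site, so only position and strand were used. Per the submitters' processing notes, FastQC 0.11.9, STAR 2.7.3a, SAMtools 1.10, bedtools 2.29.2, UMI-tools 1.1.2 and the build GRCh38.p12 were used; the site caller and its filters are not stated there, and the read depth is unknown. Coordinates are those of the list, with the first base counted as 1. Gene spans came from a RefSeq table of GRCh38.p14, in which all 32 symbols matched, and starts, strands and sequences from a RefSeq promoter table of the same assembly. All 20043 nuclear protein-coding genes were counted in the same way; a site in several genes counted for each. Exons were not known, so introns and untranslated regions were not separated, and the planned exon classes and splice site distances were not run. Positions are relative to the gene span, which can be longer than the transcript in use. All 32 genes are named, with the 5 of the other chaperone list that had the most sites, and genes that overlap them. The genes and lists were chosen with earlier results of these data known. Counts were made with pandas 2.3.3 and numpy 2.4.6, Wilson intervals with scipy 1.17.1 and plots with matplotlib 3.10.9, in Python 3.11.15; the counting was tested on simulated data.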

Additional observations from a re-analysis of the deposited data

Results flagged for a closer look

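The SNORD14 genes within the span of HSPA8 held 8 sites, which lie outside the chaperone counts. SNORD14E and SNORD14D held 3 each and SNORD14C held 2. The control that had no UV treatment was not used here, so 8 is not shown to exceed background.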

How the results depend on the processing

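Joining sites within 50 nt gave 341 sites in 27 chaperone genes and lowered the median HSP90 density to 0.475 sites per kb, about that of HSP70 genes (0.480). Leaving out sites in another gene gave 427 sites in 26 genes, with HSPE1 at 0 and a median J-protein density of 0.0244 per kb. Keeping SNORD and SNORA sites (478 sites), both strands (464) and requiring all 5 bases in the span (463) kept the number of sites and of genes with a site within 1.5 times. The share in the last 10% was 14.5% when the last 1000 nt were taken, and 17.3% as a median over genes with 3 or more sites. It was 17.7% without HSP90AA1 and 16.5% with its span cut at the inner start, which raised the median HSP90 density to 5.46 per kb. These alternatives were chosen after seeing the data, as were the count of genes with all 5 bases in the span and leaving out sites within 10 nt of a snoRNA gene. The share with a neighbour was 24.2% within 20 nt and 66.5% within 100 nt, as a narrower or wider distance must give. A stricter score could not be applied because the score is 0 throughout. No paired analysis was possible because the list holds no values per library, and for the same reason no replicate could be left out. Unknown depth limits every count, those of 0 in particular.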
